A study of Homo sapiens with 21 samples.

Results

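The cadherin genes described here were CDH1, CDH2, CDH3, CDH4, CDH6, CDH11, CDH13 and CDH17. They were taken by name, as the rows of the count tables whose Ensembl identifiers carry these symbols in a GENCODE annotation of GRCh37, and all 8 were found among the 53515 genes counted. Messenger RNA was sequenced in 17 cancer cell lines, 7 parental lines that had not been made resistant and 10 lines derived from them by months of exposure to rising doses of a drug, in 21 libraries. The study picked them from reports that found no known resistance mechanism but described EMT-like changes (EMT, the epithelial-to-mesenchymal transition), so that the counts of pairs with less CDH1 or more CDH2 come from lines selected for such features. The liver cancer line HepG2 was the parent of HepG2S1 and HepG2S3, which resist sorafenib, and PancB1V and PancB1Q, resistant to 5-fluorouracil, came from the pancreatic cancer line PancVB. The lung cancer lines were HCC4006P1 with its erlotinib-resistant HCC4006ER, HCC4006P2 with its gefitinib-resistant HCC4006GR, and HCC827P with its gefitinib-resistant HCC827GR. Among the ovarian cancer lines, UWB1.289 gave rise to U100 and U10 under olaparib, and IGROV-1 to IGROV-1/CDDP under cisplatin. Of these, 13 were sequenced once, and 4 (HCC4006P1, HCC4006ER, HepG2 and HepG2S3) in 2 libraries. Each resistant line is a single derived culture, and HCC4006P1 and HCC4006P2 are stocks of the same line, so that the pairs are not all independent. Whether drug was in the medium when RNA was taken is not given in the sources used here. The comparison asks which cadherins each resistant line gained or lost against its parent.

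Cadherins are calcium-dependent adhesion molecules of the cell surface. The classical ones bind the same cadherin on a neighbouring cell and hold the actin cytoskeleton through the catenins. CDH1, or E-cadherin, holds epithelial sheets together, and its loss beside a gain of CDH2, or N-cadherin, is the textbook sign of EMT. CDH3, or P-cadherin, lies beside CDH1 in the genome and is an epithelial and basal-cell cadherin. CDH4, or R-cadherin, is a classical cadherin of retina, brain and kidney. CDH6, or K-cadherin, is known from kidney and ovarian carcinoma, and CDH11, or OB-cadherin, from osteoblasts and mesenchyme. CDH13, or T-cadherin, is held to the membrane by a lipid anchor and lacks the tail that binds catenins, and CDH17, or LI-cadherin, belongs to liver and intestine development and to gut epithelium.

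The CDH2 promoter is shown because CDH2 was the leading cadherin in most resistant lines. RefSeq sequence on GRCh38 was at hand for 2 of the 8 members, CDH2 and CDH4, in windows from 250 bases before to 50 bases after an annotated start, and CDH2 has windows at 2 starts, both on the minus strand of chromosome 18. Capitals mark CpG dinucleotides, the sites of DNA methylation.
CDH2 upstream start, chr18:28177081-28177380: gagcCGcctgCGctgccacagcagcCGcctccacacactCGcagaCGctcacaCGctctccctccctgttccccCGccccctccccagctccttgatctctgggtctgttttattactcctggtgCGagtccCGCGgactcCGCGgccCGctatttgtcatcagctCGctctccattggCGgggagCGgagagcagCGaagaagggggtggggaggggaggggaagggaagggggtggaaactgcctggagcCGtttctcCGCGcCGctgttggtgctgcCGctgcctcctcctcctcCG
CDH2 downstream start, chr18:28036592-28036891: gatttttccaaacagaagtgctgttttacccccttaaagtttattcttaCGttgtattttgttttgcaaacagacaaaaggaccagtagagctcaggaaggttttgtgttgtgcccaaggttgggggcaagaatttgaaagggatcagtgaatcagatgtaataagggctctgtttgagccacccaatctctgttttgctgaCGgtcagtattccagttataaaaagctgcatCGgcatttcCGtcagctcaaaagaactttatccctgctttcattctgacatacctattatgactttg
The upstream window held 23 CpG and the downstream one 4, against a median of 14 over all 35116 windows of the table, and 64.2% and 24.5% of the windows held fewer. The E-box letters CACCTG, or CAGGTG on the other strand, to which SNAI and ZEB factors can bind, were in neither CDH2 window and in 20.6% of all windows. The deposited counts are per gene and do not separate the starts.

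Levels are given in CPM, the reads of a gene scaled to a common total of reads on genes, as the mean of replicate libraries where there are any. The 9 parental libraries held 11621919 to 36639473 counts on genes and the 12 resistant ones 9851195 to 32008712, so that 3 counts, the number taken as the floor of detection, are worth between 0.0819 and 0.305 CPM. In HCC4006P1 replicate 1 the counts stop on chromosome 7. Beyond it, 1679 genes reached 50 counts in replicate 2, of which 0 had any in replicate 1. CDH17 is the member that lies there, and its HCC4006P1 value is that of replicate 2. The stretch held 18.1% of replicate 2 counts, so the smaller total of replicate 1 raises the CPM of its other genes. On totals over positioned genes outside the stretch, the HCC4006P1 libraries had 549 and 610 CPM of CDH1. They had 59.7 and 69.8 of CDH2 and 434 and 310 of CDH3. The CPM below use all counts on genes. With totals outside the stretch, 1 member value crossed 2-fold, CDH4 in HepG2S3 (-1.06). The parental HepG2 libraries expressed all 6 hepatocyte markers (ALB, AFP, APOA1, APOB, TF and SERPINA1), with a summed 43220 CPM. The sum was 0.508 CPM in HepG2S1, where 4 of the 6 were at 0, and 35.5 CPM in HepG2S3, where 5 of the 6 were at or above 1 CPM and 0 were at 0. The libraries labelled HepG2S1 and HepG2S3 thus hold these markers at far lower levels than their labelled parent, and some of the counts that include them are given below without them too. Summed fibroblast markers (DCN, LUM, PDGFRA, PDGFRB and THY1) were 536 CPM in HepG2S1 and 389 in HepG2S3 against 8.42 in HepG2, 167 in HCC4006ER against 0.868 in HCC4006P1, and 165 in U10, nearly all of it THY1, against 3.44 in UWB1.289. In HepG2S1 and HepG2S3 the rise was in DCN (399 and 345 CPM) and LUM (135 and 36.5). PDGFRB was lower there, at 2.03 and 6.88 CPM against 8.09 in HepG2. PDGFRA was lower too, and it and THY1 were under 1 CPM in these lines. In HCC4006ER THY1 was lower, at 0.101 CPM against 0.607. Lung markers (NKX2-1, NAPSA, SFTPB and SFTA2) summed to 2.76 CPM in HCC4006P1 and 3.11 in HCC4006ER, but to 276 in HCC4006P2, a stock of the same line. Against the parent, the lung marker sum was thus not lower in HCC4006ER. It was lower in HCC4006GR, at 24.2 CPM, and in HCC827GR, at 29.1 against 119 in HCC827P. Summed fibroblast markers were 10.4 CPM in HCC4006GR against 0.294 in HCC4006P2. The part of these markers in the cadherin changes of the lung pairs was not tested. Ovarian markers (PAX8, WT1, MUC16 and EMX2) summed to between 417 and 665 CPM in the ovarian lines, led by PAX8. The sum does not set them apart, as the lung lines HCC827P and HCC827GR had 642 and 274 CPM, mostly MUC16. PAX8 alone was at least 357 CPM in every ovarian line and at most 36.0 CPM elsewhere. WT1 and EMX2 were under 1 CPM in all ovarian lines. Pancreatic duct markers (KRT7, KRT19, SOX9 and PDX1), which most lines here express, summed to between 1110 and 3314 CPM in the pancreatic lines. Endothelial markers reached 89.0 CPM in U10, of which CDH5 was 81.4, and leukocyte markers stayed at or under 1.62 CPM apart from LYZ at 1552 CPM in HepG2.

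Changes are log2 fold changes of CPM + 1 in the resistant against the parental line, which understate the change of genes with few counts. A change beyond 2-fold is a description, since 8 of the 10 pairs have a line with a single library. Of the 80 values, 8 members in 10 pairs, 20 were more than 2-fold higher in the resistant line, 12 more than 2-fold lower and 48 within 2-fold. Without the HepG2 pairs, these were 19 and 10 of 64. The counts of each pair are read against the share of all expressed genes, those with at least 1 CPM in either line, that moved as far. Members that met this level numbered 7 in the HCC4006ER, HCC4006GR, U10 and U100 pairs. They numbered 5 in HCC827GR, PancB1Q and PancB1V, 3 in HepG2S3 and 2 in HepG2S1 and IGROV-1/CDDP. The other members were under 1 CPM in both lines of the pair and are counted as within 2-fold. In the lung pairs several members were higher together. HCC4006ER had 4 members higher (10.6% of all genes) and 2 lower (12.4%), HCC4006GR had 5 higher (7.75%) and 0 lower (7.47%), and HCC827GR had 3 higher (10.6%) and 2 lower (7.67%). The pancreatic lines shared 1 pattern: in PancB1Q 2 members were higher (6.10%) and 1 lower (9.41%), and in PancB1V again 2 were higher (8.89%) and 1 lower (7.25%). In the ovarian pairs, U10 had 2 members higher (6.27%) and 1 lower (5.11%), U100 had 0 higher (6.43%) and 2 lower (1.73%), and IGROV-1/CDDP had 1 higher (5.55%) and 1 lower (7.21%). The HepG2 derivatives had few expressed members, against a large background. Of its 2, HepG2S1 had 0 higher (25.5%) and 1 lower (18.4%). Of its 3, HepG2S3 had 1 higher (27.3%) and 1 lower (17.7%).

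**Figure D1:**
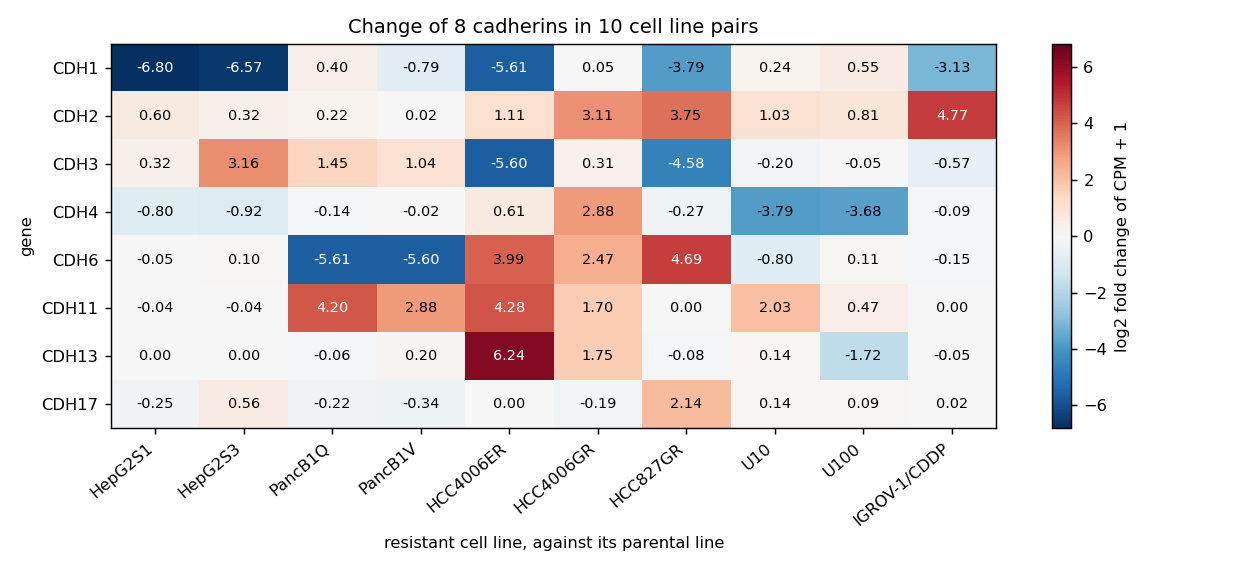
Log2 fold change of CPM + 1 of the 8 cadherins (rows) in each resistant line against its parental line (columns). Red is higher and blue lower in the resistant line. CDH1 is below -1 in 5 pairs and CDH2 above 1 in 5, and CDH6 has opposite signs in the pancreatic and the lung lines.

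CDH1 (ENSG00000039068, chromosome 16 from 68771195 to 68869440, plus strand) was high in the parental lung lines and HepG2 and nearly absent from some of their derivatives. Its CPM were 107 and 182 in the HepG2 libraries, 0.305 in HepG2S1 and 0.469 and 0.587 in HepG2S3. In the HCC4006P1 libraries they were 535 and 485, and in HCC4006ER 8.60 and 10.4. The replicated groups did not overlap, and CDH1 fell by 8.40 ± 0.39 (SE, log2) in HepG2S3 with an adjusted p of 7.59e-05, and by 5.70 ± 0.18 in HCC4006ER with an adjusted p of 8.38e-06, in edgeR's quasi-likelihood test with Benjamini-Hochberg adjustment. In the fit that includes HepG2S1, whose single library is assumed to vary like the others, CDH1 fell by 9.22 ± 0.64 (edgeR adjusted p 3.14e-04). Its 3 counts there give a ratio to HepG2 of 0.00212, with a counting interval of 0.000438 to 0.00621. The hepatocyte markers given above were lower in the same libraries, and their part in this result was not tested.

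The other low CDH1 values rest on single libraries. From HCC827P to HCC827GR it went from 748 to 53.3 CPM, or -3.79 on the log2 scale (95% counting interval -3.89 to -3.69), and from IGROV-1 to IGROV-1/CDDP from 13.0 to 0.593 CPM, -3.13 (-3.40 to -2.79). CDH1 was therefore more than 2-fold lower in 5 of 10 pairs, and in 3 of 8 without HepG2. In the remaining pairs it was kept or was low from the start. HCC4006P2 and HCC4006GR had 482 and 499 CPM. UWB1.289, U10 and U100 had 28.4, 33.8 and 42.0 CPM, both derived lines being slightly above their parent beyond counting error. PancVB already had only 2.12 CPM, with 3.12 in PancB1Q and 0.805 in PancB1V. Over the 17 lines CDH1 ran from 0.305 CPM in HepG2S1 to 748 in HCC827P, and its median was 144 CPM in the parental and 6.30 in the resistant lines.

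CDH3 (ENSG00000062038, chromosome 16 from 68670092 to 68761371, plus strand) ends 9824 bases before CDH1 begins. It followed CDH1 in the lung pairs and departed from it in the HepG2 and PancVB pairs. In HCC4006P1 CDH3 had 423 and 247 CPM, and in HCC4006ER 5.52 and 6.32, a fall of 5.74 ± 0.21 (SE, log2, edgeR adjusted p 1.10e-05). From HCC827P to HCC827GR CDH3 went from 401 to 15.8 CPM, or -4.58 on the log2 scale (counting interval -4.75 to -4.41). HCC4006P2 and HCC4006GR kept 454 and 562 CPM, as they kept CDH1. In HepG2S3, by contrast, CDH3 had 10.5 and 6.17 CPM where HepG2 had 0 and 3 counts in its libraries, and it rose by 7.21 ± 0.75 (SE, log2, edgeR adjusted p 8.65e-04) while CDH1 fell. The ratio to those 3 counts is 199, with a counting interval of 67.8 to 970. CDH3 in HepG2S1 had 3 counts. From IGROV-1 to IGROV-1/CDDP, where CDH1 was lower, CDH3 went from 15 counts to 1. That is a ratio of 0.0725 (counting interval 0.00172 to 0.471) at levels under 1 CPM, and -0.57 as log2 fold change of CPM + 1. PancB1Q and PancB1V had 4.87 and 3.42 CPM against 1.15 in PancVB, and the ovarian UWB1.289, U10 and U100 66.3, 57.4 and 64.1 CPM. Levels over the 17 lines gave a Pearson correlation of 0.79 between CDH1 and CDH3, the highest of the 28 pairs of members, as a description of lines that share parents. TANGO6, the gene on the far side of CDH1 at 7994 bases, changed between -0.49 and 0.64 (log2) over the pairs, and ZFP90, beyond CDH3, between -0.35 and 0.85, both within 2-fold in every pair.

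CDH2 (ENSG00000170558, chromosome 18 from 25512843 to 25757910, minus strand) was present in most parental lines and higher in the derivatives of those where it had been low. Its CPM were 29.3 in IGROV-1/CDDP against 0.109 in its parent, 0.173 in HCC827P and 14.8 in HCC827GR, and 9.26 in HCC4006P2 and 87.4 in HCC4006GR. The first 2 parents had 3 counts each, which gives a ratio of 269 (counting interval 91.7 to 1307) for IGROV-1/CDDP and of 85.5 (28.9 to 418) for HCC827GR. The HCC4006GR ratio was 9.44 (7.86 to 11.4). In HCC4006P1 CDH2 had 58.1 and 55.5 CPM and in HCC4006ER 118 and 129, libraries that do not overlap, and it rose by 1.16 ± 0.15 (SE, log2, edgeR adjusted p 0.00111). UWB1.289 had 76.1 CPM, U10 157 and U100 135, which is 1.03 on the log2 scale for U10 (counting interval 0.91 to 1.15) and 0.81 for U100 (0.70 to 0.93).

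Where CDH2 was already high it changed little. The HepG2 libraries had 136 and 210 CPM, HepG2S1 262 and HepG2S3 203 and 229, so that HepG2 replicate 2 overlaps HepG2S3. The edgeR change in HepG2S3 was 0.01 ± 0.22 (SE, log2, adjusted p 0.979), and in HepG2S1 0.25 ± 0.28 (adjusted p 0.493). On the CPM scale the HepG2S3 change was 0.32, with a range of -0.05 to 0.75 over the 4 pairings of libraries, and it turned to -0.11 with TMM-scaled library sizes, while the median of all genes was 0.28. A single parental library decided the test: without HepG2 replicate 1 the edgeR change was -0.27 (adjusted p 0.0170), and without replicate 2 it was 0.33 (adjusted p 0.00398). PancVB, PancB1Q and PancB1V had 312, 363 and 317 CPM. Levels of CDH2 over 17 lines ran from 0.109 CPM in IGROV-1 to 363 in PancB1Q. All 10 resistant lines had at least 10 CPM of CDH2, as did 4 of the 7 parental lines.

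**Figure D2:**
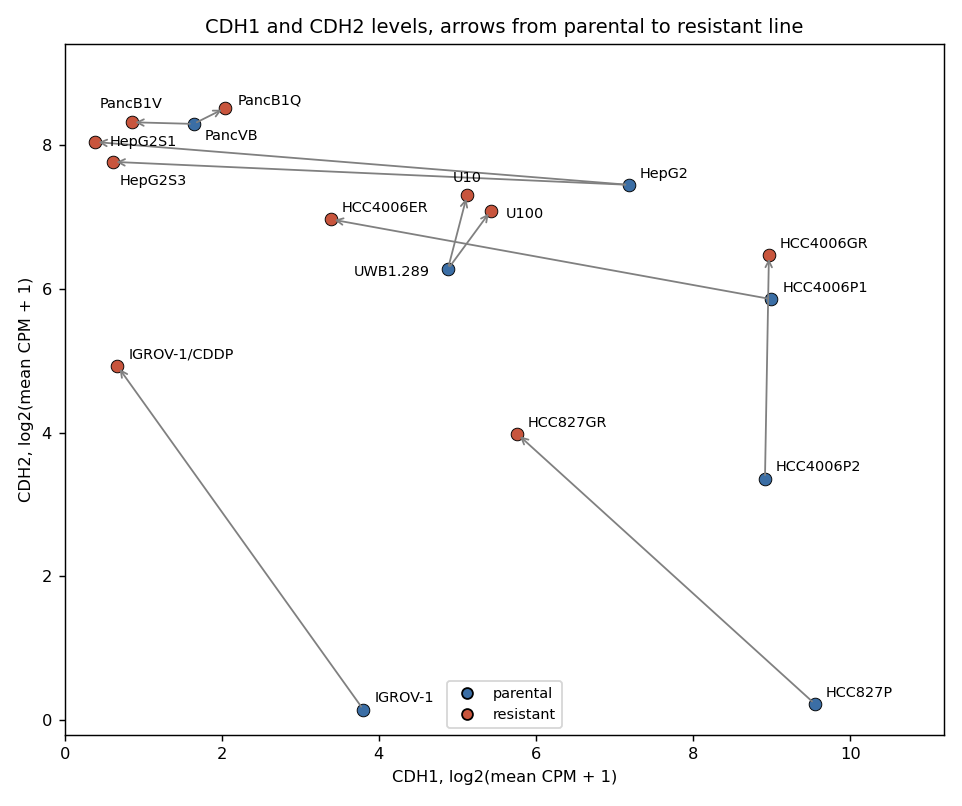
CDH1 (horizontal) against CDH2 (vertical) as log2(mean CPM + 1) in each of the 17 cell lines, with an arrow from each parental to each resistant line. HepG2 moves left with CDH2 within 2-fold, HCC4006P2 moves up with CDH1 within 2-fold, and HCC4006P1, HCC827P and IGROV-1 move both left and up.

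In the CDH1 and CDH2 plot, CDH1 was more than 2-fold lower with CDH2 more than 2-fold higher in 3 pairs, those of HCC4006ER, HCC827GR and IGROV-1/CDDP. CDH1 was lower with CDH2 within 2-fold in both HepG2 derivatives. CDH2 was higher with CDH1 within 2-fold in HCC4006GR and U10. Both were within 2-fold in PancB1Q, PancB1V and U100. In HCC4006GR, cells with 499 CPM of CDH1 and cells with 87.4 CPM of CDH2 cannot be told apart from cells with both, and in bulk RNA fewer expressing cells cannot be told apart from less RNA per cell.

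CDH4 (ENSG00000179242, chromosome 20 from 59827317 to 60515673, plus strand) was low in nearly all lines, under 1 CPM in 13 of 17. It had 12.8 CPM in UWB1.289, its highest level, and went to 0 counts in U10 and 1 count in U100. Against the floor of 3 counts per library it was at least 43.8-fold lower in U10, and the U100 ratio was 0.00595 (counting interval 0.000150 to 0.0337). The olaparib-resistant lines were thus alike in this, and they share the single parental library. Gains appeared in the HCC4006 pairs. HCC4006GR had 6.88 CPM against 1 count in HCC4006P2, a ratio of 93.7 (16.4 to 3735). HCC4006ER had 8.10 and 10.3 CPM against 5.61 and 5.74 in HCC4006P1, a rise of 0.74 ± 0.23 (SE, log2, edgeR adjusted p 0.0393) that was lost in 5 of its 9 alternatives, among them the fits without HCC4006ER replicate 1 (adjusted p 0.0542) or replicate 2 (0.329). In HepG2S3, 0 and 1 counts stood against 0.628 and 1.21 CPM in HepG2, and CDH4 fell by 5.82 ± 0.84 (SE, log2, edgeR adjusted p 0.00255).

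CDH6 (ENSG00000113361, chromosome 5 from 31193793 to 31329253, plus strand) went in opposite directions in the pancreatic and the lung pairs. PancVB had 92.5 CPM, PancB1Q 0.910 and PancB1V 0.926, log2 fold changes of -5.61 (counting interval -5.86 to -5.32) and -5.60 (-5.86 to -5.28). Its level in the lung lines was low before and high after: 0.908 and 0.359 CPM in HCC4006P1 against 26.6 and 23.3 in HCC4006ER, 4.34 in HCC4006P2 against 28.5 in HCC4006GR, and 4.15 in HCC827P against 132 in HCC827GR. The HCC4006ER libraries lay far above both parental ones, and CDH6 rose by 5.36 ± 0.28 (SE, log2, edgeR adjusted p 3.26e-05). For HCC4006GR and HCC827GR the log2 fold changes were 2.47 (2.14 to 2.79) and 4.69 (4.41 to 4.96). UWB1.289, U10 and U100 held 273, 157 and 294 CPM, the highest of all lines, with U10 below its parent and U100 above it beyond counting error but within 2-fold. HepG2 and IGROV-1 and their derivatives stayed under 0.5 CPM.

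CDH11 (ENSG00000140937, chromosome 16 from 64977656 to 65160015, minus strand) was more than 2-fold higher in 5 pairs and lower in 0. It went from 5.16 CPM in PancVB to 112 in PancB1Q and 44.5 in PancB1V, log2 fold changes of 4.20 (counting interval 3.97 to 4.43) and 2.88 (2.64 to 3.12), so that the pancreatic lines lost CDH6 and gained CDH11. In HCC4006P1 it had 3.79 and 2.00 CPM and in HCC4006ER 82.1 and 67.7, and it rose by 4.76 ± 0.22 (SE, log2, edgeR adjusted p 2.11e-05). HCC4006GR had 107 CPM against 32.3 in HCC4006P2, and U10 had 5.56 against 0.602 in UWB1.289, with 1.22 in U100. Not every line took part: CDH11 was at 0 counts in HCC827P, HCC827GR, IGROV-1 and IGROV-1/CDDP, and at 1 count or 0 in each HepG2, HepG2S1 and HepG2S3 library. In HCC4006ER the gains of CDH11, CDH6 and CDH13 stood beside 167 CPM of summed fibroblast markers, of which 4 of 5 passed 1 CPM and LUM held 115. Whether the same cells express these markers and cadherins was not tested.

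CDH13 (ENSG00000140945, chromosome 16 from 82660570 to 83834245, plus strand) had 0 counts in both HCC4006P1 libraries and 74.0 and 75.5 CPM in the HCC4006ER ones. It was at least 476-fold higher there against the floor of 3 counts per library, and it rose in the edgeR test (adjusted p 1.14e-05). HCC4006GR had 3.84 CPM against 0.441 in HCC4006P2, a ratio of 8.71 (counting interval 3.77 to 24.7). The ovarian lines UWB1.289 and U10 had 26.0 and 28.8 CPM and U100 7.17, or -1.72 on the log2 scale (-2.02 to -1.42). Of the 17 lines, 12 were under 1 CPM. HSBP1 overlaps CDH13 on the same strand and reached 164 CPM in HepG2S3, where CDH13 had 0 counts.

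CDH17 (ENSG00000079112, chromosome 8 from 95139390 to 95229531, minus strand) was under 1 CPM in 16 of 17 lines, averaged over libraries. HCC827GR was the exception with 4.18 CPM against 3 counts in HCC827P, a ratio of 24.2 (counting interval 7.91 to 120). In HepG2S3 it had 0.844 and 1.01 CPM against 0.355 and 0.258 in HepG2, libraries that do not overlap. This rise of 1.27 ± 0.35 (SE, log2, edgeR adjusted p 0.0250) was lost in 5 of its 8 alternatives, with adjusted p up to 0.192.

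**Figure D3:**
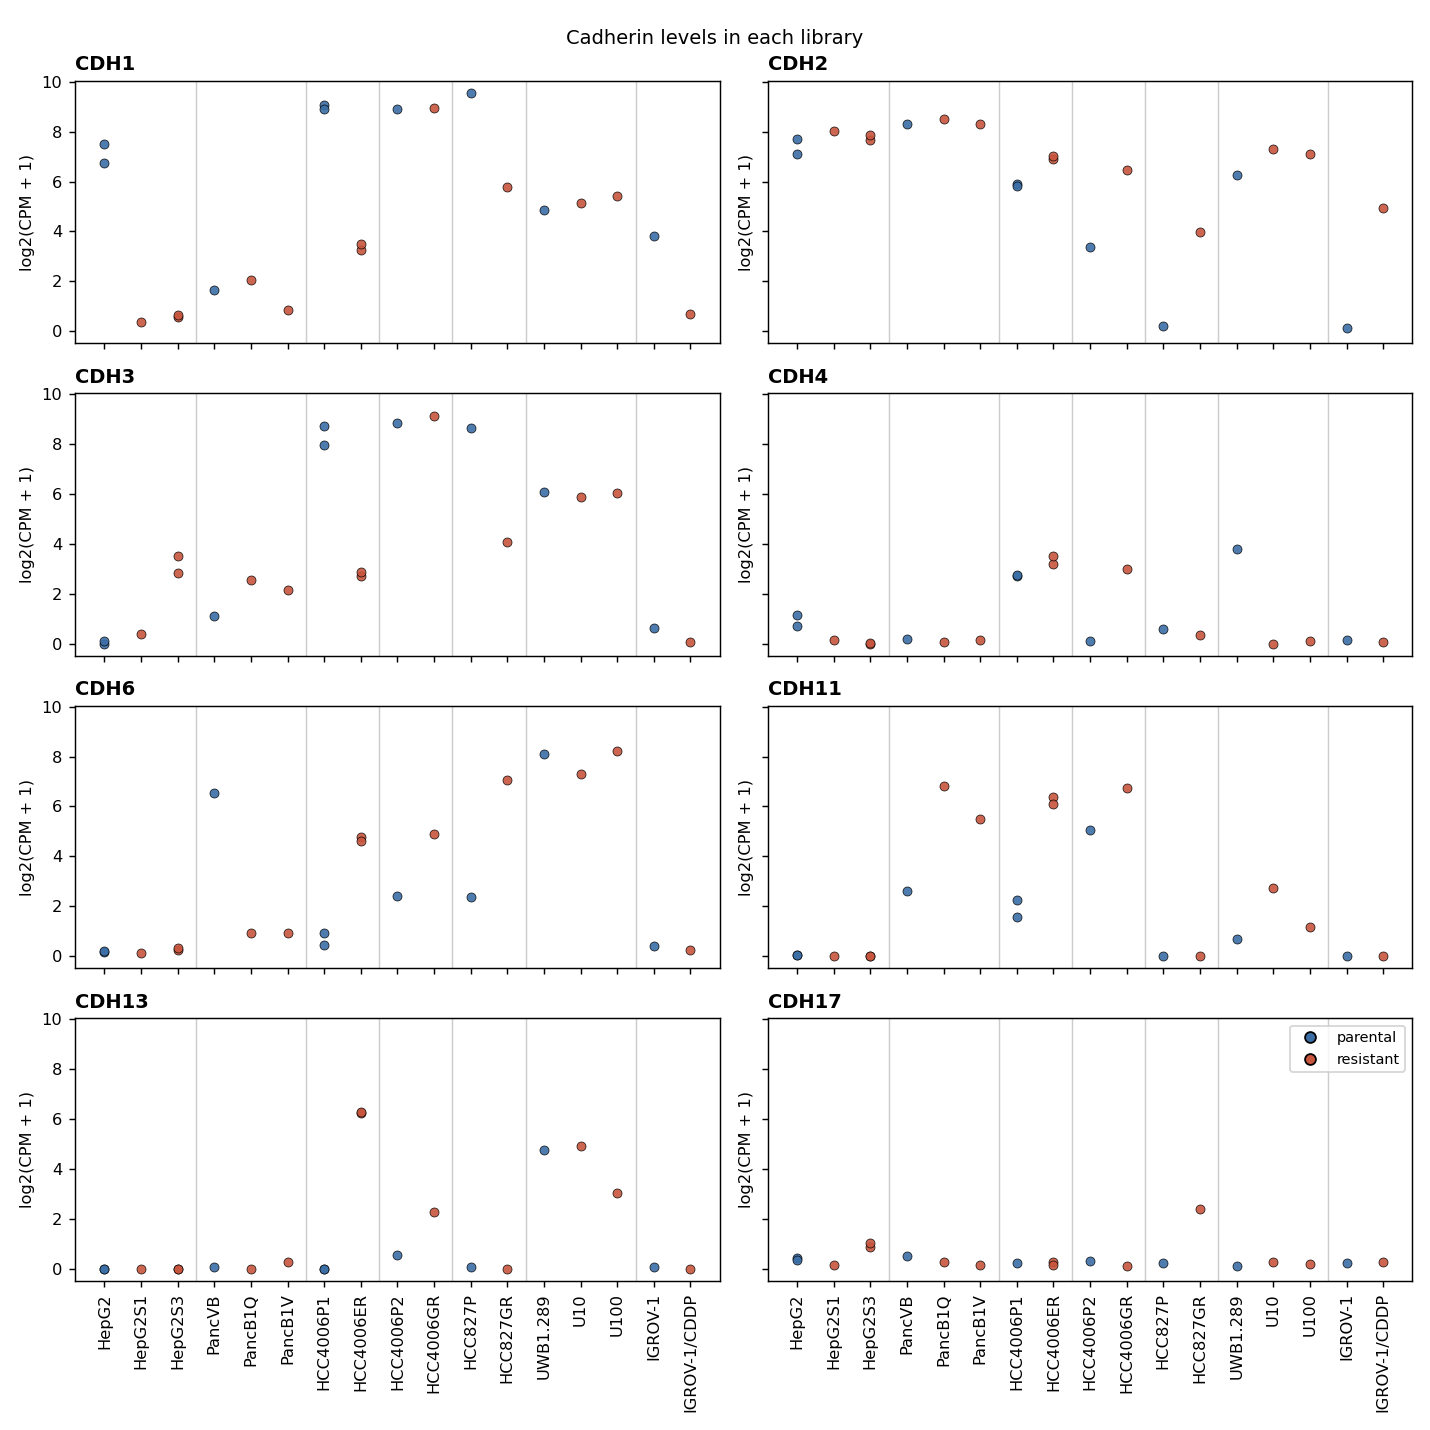
Level of each cadherin in each of the 21 libraries as log2(CPM + 1), with parental lines in blue, resistant lines in red and vertical lines between families of cell lines. Replicate libraries of CDH1 lie close together beside the distance between parent and derivative, those of CDH2 in HepG2 (136 and 210 CPM) overlap the HepG2S3 range, and CDH17 stays near 0 apart from HCC827GR; the HCC4006P1 library without counts on chromosome 8 is left out for CDH17.

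The tests over all genes give the background of these calls. In HepG2S3 against HepG2, 63.5% of 16929 genes passed, and of the 5 members that passed the filter on low counts CDH3 and CDH17 rose, CDH1 and CDH4 fell and CDH2 did not pass. In HepG2S1, 47.3% of 18341 genes passed, and of 5 members tested CDH1 fell and 4 did not pass. In HCC4006ER against HCC4006P1, 49.0% of 12791 genes passed, and of 7 members tested CDH2, CDH4, CDH6, CDH11 and CDH13 rose and CDH1 and CDH3 fell. Shares of this size mean that a call alone sets no member apart from other genes. When the counts of each family were summed into 7 resistant and 7 parental profiles with the parental line as a block, 0% of 19829 genes passed in edgeR, 920 had an unadjusted p under 0.05, and DESeq2 called 105. CDH1 had a log2 fold change of -2.99 ± 1.37 (SE) there, CDH2 of 2.20 ± 1.02 and CDH11 of 2.84 ± 0.95, each with an edgeR adjusted p of 0.994. In DESeq2 the adjusted p of CDH1 was 0.0568. A common change over the 7 families was therefore not detected for any member by a test that sets its size against the spread between families. The test does not count directions. On the CPM scale CDH2 was above 0 in every pair, from 0.02 in PancB1V, within counting error, to 4.77 in IGROV-1/CDDP. Its sign in HepG2S3 turned with TMM-scaled sizes, as given above.

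The changes differed between the replicated pairs. An interaction term in edgeR compared the change in HepG2S3 with that in HCC4006ER, and 55.9% of 14479 genes passed it, 6 of 7 members tested among them. CDH3 rose in HepG2S3 and fell in HCC4006ER, a difference of 12.95 ± 0.64 (SE, log2, adjusted p 7.00e-07). CDH1 fell in both, by 2.67 ± 0.43 more in HepG2S3 (adjusted p 7.59e-04). The change of CDH2 was lower by 1.13 ± 0.30 in HepG2S3 (adjusted p 0.0117, but 0.0514 without HepG2S3 replicate 1), that of CDH4 by 6.47 ± 0.87 (2.71e-04) and that of CDH6 by 4.99 ± 0.66 (2.55e-04), where HepG2 and HepG2S3 hold few CDH6 counts. CDH11 passed with an adjusted p of 0.00496, on 2 counts in HepG2 and 0 in HepG2S3, so that its size is not interpreted. CDH13 did not pass in edgeR, where HepG2, HepG2S3 and HCC4006P1 had 0 counts and the term could not be estimated, and passed in DESeq2 (adjusted p 9.01e-07).

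Levels of different genes were compared only per length, as CPM per kb of the gene's joined exons. By this measure CDH1 led the 8 cadherins in 5 of 7 parental lines and in 0 of 10 resistant lines, and CDH2 led in 1 parental line and 7 resistant ones. Without HepG2 and its derivatives, CDH1 led in 4 of 6 parental lines and CDH2 in 5 resistant ones. The leading cadherin differed between parent and derivative in 7 of 10 pairs, and in 5 of 8 without the HepG2 pairs. With the longest transcript as the length it differed in 4 of 10 pairs, with CDH1 leading 3 parental lines. With no division by length it differed in 5, with CDH1 leading 4, where the tie of CDH2 and CDH6 in U10 is counted for CDH2. In HepG2 CDH1 held 53.8% of the sum of the 8 and CDH2 45.7%, with the same order in each of its libraries, but CDH2 came first when the longest transcript or no length was used. HepG2S1 and HepG2S3 were left with 99.5% and 93.9% CDH2. The IGROV-1 pair went from 91.9% CDH1 to 95.1% CDH2, at the lowest summed levels of all families, 2.32 CPM per kb in the parent.

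The lung lines started alike and ended apart. CDH1 and CDH3 made up nearly all of HCC4006P1 (58.3% and 36.4%), HCC4006P2 (51.4% and 46.1%) and HCC827P (66.1% and 33.7%). HCC4006ER was led by CDH2 with 44.2%, before CDH13 with 20.8% and CDH11 with 17.3%. HCC827GR was led by CDH6 with 43.0%, before CDH1 with 35.5%. HCC4006GR kept CDH3 at 45.8% and CDH1 at 42.8%, an order that is that of HCC4006P2 reversed, and in HCC4006P2 the longest transcript as length put CDH3 first too. The summed level was 4.42-fold lower in HCC4006ER, at 32.6 against 144 CPM per kb, and 7.54-fold lower in HCC827GR, at 24.7 against 186. In HCC4006GR it was 192 against 154 CPM per kb in HCC4006P2.

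In the pancreatic and UWB1.289 families the sum stayed between 41.1 and 57.0 CPM per kb. CDH2 held 81.1% in PancVB, 81.1% in PancB1Q and 89.9% in PancB1V, while the second place passed from CDH6 (16.6%) to CDH11 (16.2% in PancB1Q and 8.15% in PancB1V). UWB1.289 held a mixture, with 43.9% CDH6, 20.7% CDH3, 17.8% CDH2 and 9.35% CDH1. In U10 the lead passed to CDH2 with 37.6% against 26.0% CDH6, although CDH2 and CDH6 had the same 1606 counts there, so that the order in this line is set by the division by length. U100 kept CDH6 in the lead with 41.4%, before CDH2 with 27.5%.

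**Figure D4:**
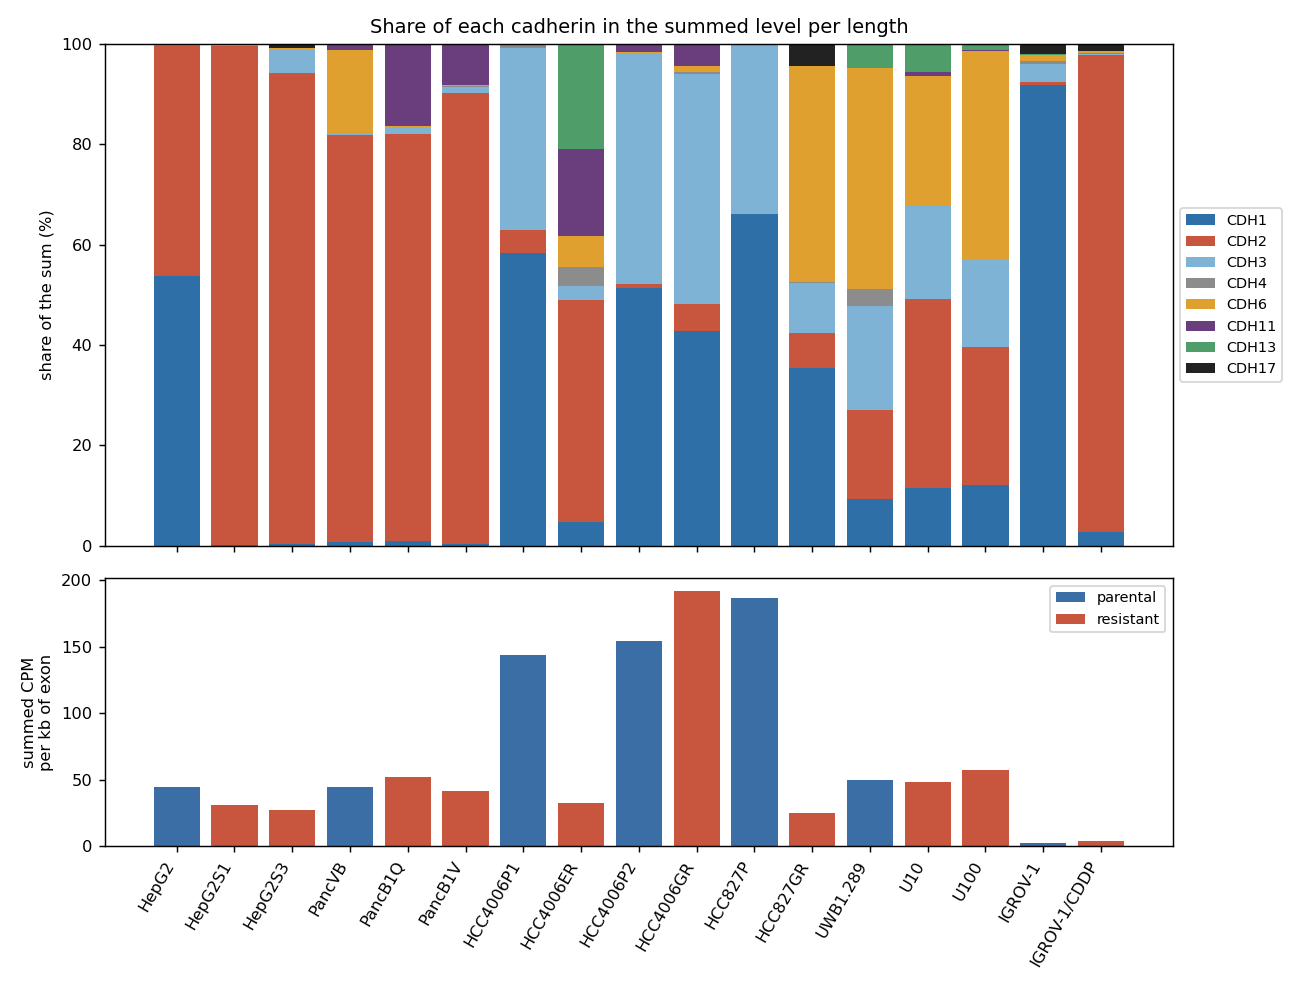
Upper panel: share in percent of each cadherin in the sum of the 8 members, in CPM per kb of exon, in the 17 cell lines with each parental line before its derivatives. Lower panel: the sum itself in CPM per kb, parental in blue and resistant in red; CDH1 (blue) gives way to CDH2 (red) in the HepG2 and IGROV-1 families, and the sum drops in HCC4006ER and HCC827GR.

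Partners of the cadherins were taken from lists, whose counts are to be read against the 63.5% of all genes called in HepG2S3 and the 49.0% called in HCC4006ER. Of the catenins and their linkers, 8 of 11 were tested in HepG2S3 and 3 rose and 4 fell, with a median of -0.75 against -0.01 for all genes, and 9 were tested in HCC4006ER and 2 rose and 3 fell, with a median of -0.19 against 0.01. CTNNB1, beta-catenin, named here after its values were seen, fell by 1.48 ± 0.22 (SE, log2, edgeR adjusted p 0.00261) in HepG2S3, from a mean of 630 to 281 CPM, and rose by 0.35 ± 0.11 (0.0358) in HCC4006ER. JUP, or plakoglobin, which can stand in for beta-catenin, rose by 0.93 ± 0.12 (0.00189) in HepG2S3 and fell by 2.99 ± 0.13 (1.60e-05) in HCC4006ER, from 314 to 38.2 CPM. CTNND1, or p120-catenin, which keeps classical cadherins at the surface, fell by 1.52 ± 0.13 (4.47e-04) in HepG2S3 and did not pass in HCC4006ER. CTNND2, its neuronal relative, rose by 5.97 ± 0.44 (1.18e-04) in HCC4006ER, at 5.13 CPM against 0.0780. LIMA1 and VCL, which link the complex to actin, rose by 2.62 and 1.66 in HepG2S3, and ARVCF, another p120-like catenin, fell by 3.59.

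Of 6 nectin-family genes, afadin included, which form the junction beside cadherins, 0 rose and 5 fell in HepG2S3 (median -1.48 against -0.01 for all genes), and 1 rose and 2 fell in HCC4006ER (median -0.29 against 0.01), a share near the 49.0% of all genes. AFDN, or afadin, fell by 3.18 ± 0.13 (SE, log2, edgeR adjusted p 6.18e-05) in HepG2S3 and by 1.06 ± 0.12 (6.03e-04) in HCC4006ER. NECTIN4 fell by 7.84 ± 0.36 (1.94e-05) in HCC4006ER, from 26.2 to 0.102 CPM. NECTIN2 fell by 1.87 in HepG2S3 and NECTIN3 rose by 0.79 in HCC4006ER. Among 6 genes of cadherin maturation, shedding and turnover, 2 rose and 4 fell in HepG2S3, and of 5 tested in HCC4006ER 0 rose and 4 fell. FURIN, a protease that trims the cadherin precursor, fell by 4.09 ± 0.25 (1.64e-04) in HepG2S3 and by 1.34 ± 0.15 (6.90e-04) in HCC4006ER, and ADAM15 rose by 1.99 ± 0.14 (2.13e-04) in the one and fell by 1.23 ± 0.14 (7.50e-04) in the other. In HepG2S3 CBLL1, a ubiquitin ligase that acts on E-cadherin, rose by 0.65.

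Of 5 genes known to repress CDH1, 4 rose and 1 fell in HepG2S3, where 63.5% of all genes were called, with a median of 4.58 against -0.01 for all genes. In HCC4006ER the 4 tested rose, where 49.0% of all genes were called, with a median of 1.76 against 0.01. ZEB2 was more than 2-fold higher in 8 of 10 pairs, the most of any gene of these lists. Its mean CPM went from 1.37 in HCC4006P1 to 73.0 in HCC4006ER, a rise of 5.80 ± 0.24 (SE, log2, edgeR adjusted p 1.37e-05), from 1.73 in HCC827P to 50.5 in HCC827GR, from 0.147 in HCC4006P2 to 15.6 in HCC4006GR and from 0.590 in HepG2 to 17.7 in HepG2S3. ZEB2 was at 0 in IGROV-1 and IGROV-1/CDDP, a pair in which CDH1 was lower, and was higher in HCC4006GR, PancB1Q, PancB1V and U10, where CDH1 was within 2-fold. TWIST1, at 0 in HepG2, had 22.3 CPM in HepG2S1 and 28.2 in HepG2S3, and SNAI2, nearly absent from HepG2, had 30.5 and 52.8 CPM in the same lines. SNAI1 fell by 1.08 ± 0.24 (0.0108) in HepG2S3. ZEB1 was already at 29.7 CPM in HepG2 and 48.8 in IGROV-1, both lines with CDH1 (ZEB1 was chosen for mention after its values were seen). It was more than 2-fold higher in 3 pairs and lower in 0. With CDH1 lower, it had 19.6 CPM in HCC4006ER against 8.13 in HCC4006P1, and 44.1 in HCC827GR against 6.23 in HCC827P. With CDH1 within 2-fold, it had 13.8 CPM in HCC4006GR against 0.588 in HCC4006P2.

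**Figure D5:**
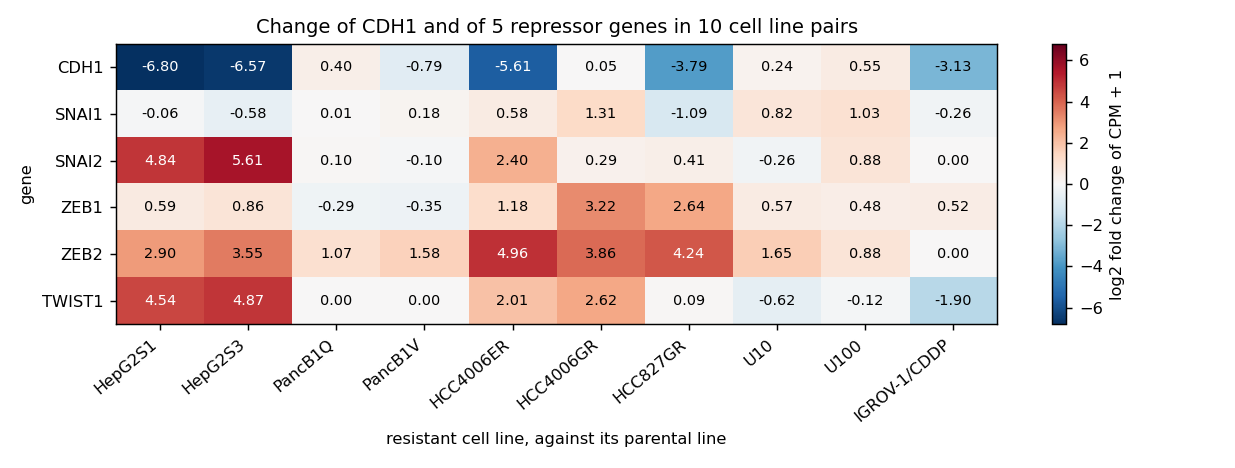
Log2 fold change of CPM + 1 of CDH1 and of 5 genes known to repress it (rows) in the 10 pairs (columns), on a common colour scale. ZEB2 is above 1 in 8 pairs, while CDH1 is below -1 in 5, and in IGROV-1/CDDP CDH1 is lower with none of the 5 higher beyond 2-fold.

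Other cadherin superfamily genes moved in both directions. Of 40 listed, 20 were tested in HepG2S3, of which 7 rose and 11 fell (median -1.26), and 24 in HCC4006ER, of which 13 rose and 5 fell (median 0.87). PCDH1, a protocadherin of epithelia, was more than 2-fold lower in 5 pairs and higher in 1, and fell by 4.70 ± 0.18 (SE, log2, edgeR adjusted p 1.14e-05) in HCC4006ER, from 221 to 8.21 CPM. PCDH7 and PCDH10 were at 0 in HepG2 and had 65.8 and 15.5 CPM in HepG2S1 and 55.7 and 32.9 in HepG2S3. CDHR2, a cadherin of the brush border, fell in HepG2S3 from 89.2 to 0.654 CPM (6.00e-05), and CDH16, the kidney cadherin, fell by 7.92 ± 0.64 (3.86e-04). CDH8, at 0 in HCC4006P1, rose in HCC4006ER to 0.971 CPM (0.00609). Beside CDH11 on chromosome 16, CDH8 and CDH5 lie 2906717 and 1240578 bases away, and CDH5 had 81.4 CPM in U10 against 9.03 in UWB1.289. For CDH2, the nearest protein-coding genes CHST9 and DSC3 changed between -4.32 and 0.99 and between -1.21 and 1.92 over the pairs, and for CDH6, DROSHA changed between -0.27 and 2.49 and CDH9 stayed at or near 0.

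The genes most like each cadherin over the 17 lines were taken among 10552 protein-coding genes with at least 10 CPM in a line, by Pearson correlation of log2(CPM + 1). The lines share parents and depth differs between them, so these values are descriptions. CDH1 was most like CBLC (0.89), DGKG (0.89) and MARVELD2 (0.88), the last a tight junction protein of epithelia, and most opposite to C19orf44 (-0.93), FMNL1 (-0.92) and SYDE1 (-0.90). CDH3 was most like TMEM30B (0.95), ITGB6 (0.93), an epithelial integrin chain, and BOD1L1 (0.93), and most opposite to TCTN3 (-0.89), MAPK14 (-0.89) and ALDH18A1 (-0.88). CDH2 was most like ATP6V1E1 (0.92), ARF4 (0.90) and ROBO1 (0.87), a guidance receptor, and most opposite to TRPC6 (-0.84), ANKZF1 (-0.84) and ZFYVE21 (-0.83). For CDH6 they were CACNG6 (0.91), SIRPB1 (0.87) and ADAMTSL3 (0.84), against GTF3C6 (-0.86), GABPB1 (-0.86) and BLOC1S6 (-0.83). For CDH11 they were ADAMTS3 (0.89), MMP17 (0.88) and CREB3L1 (0.87), a factor of collagen-making cells, against OXSM (-0.88), LRRC8D (-0.85) and MTHFD2L (-0.85). The members' own correlations were -0.48 for CDH1 with CDH2 and 0.65 for CDH6 with CDH13.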

How the data were processed

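The authors deposited 1 file of HTSeq read counts per gene for each of 21 libraries, with no normalization. The submitters' processing notes name Bowtie, TopHat, SAMtools and HTSeq with hg19, and the study's methods name STAR for libraries made with a 3' kit. Which library used which kit, the strand setting and the annotation release are not given in the sources used here. Rows that name no gene held 28.0% to 42.8% of counts and were left out, which left 53515 genes, of which 45100 (84.3%) matched a GENCODE annotation on GRCh37. PCDH20 and PECAM1 were not matched.

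Cell lines and their parents were taken from the labels. Nothing in the labels says that replicate libraries came from separate cultures, so p-values measure the spread between these libraries, which may be technical. Fold changes used CPM with a pseudocount of 1 CPM and genes with at least 1 CPM in either line. Counting intervals are 95% intervals (Wilson for CPM) and, like the floor of 3 counts, cover counting error only. Tests used edgeR 4.0.16 (limma 3.58.1, R 4.3.3), quasi-likelihood with TMM sizes, with Benjamini-Hochberg adjustment over all genes tested at 0.05. The SE given with an edgeR change was derived from the test, as the absolute log2 change divided by the square root of its F statistic. HepG2S3 was fitted with HepG2 alone, HepG2S1 with HepG2 and HepG2S3, and the fits with HCC4006P1 left out genes without a position and those past the point where replicate 1 has no counts, and a further fit compared 7 resistant with 7 parental summed profiles. DESeq2 1.42.0, other filters, size factors, pseudocounts, lengths and left-out libraries were alternatives. The results without the HepG2 pairs were added after seeing the data. Other steps used Python 3.11.15 with numpy 2.4.6, pandas 2.3.3, scipy 1.17.1 and matplotlib 3.10.9.

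Tested on simulated data with 200 genes changed 4-fold, edgeR recovered 196 among 15381 genes in the HepG2S3 design (4.39% of calls false). It recovered 197 among 12022 in the HCC4006ER design (1.99%) and 139 among 18767 in the 7 against 7 design (2.11%). The simulated profiles shared 1 baseline per gene, and each changed gene moved alike in every family. The 7 against 7 figures therefore do not cover families that differ in baseline or in direction of change. Named were all 8 members, list genes beyond 2-fold one way in at least 5 pairs or among the up to 3 largest called changes per list and direction, the nearest protein-coding genes, and the 3 most and least correlated genes. A list gene that this rule names is not reported here. The members and lists were chosen with earlier results of these data known. Antisense transcripts overlap CDH2, CDH4 and CDH6 at up to 0.774, 1.47 and 0 CPM, and without a known strand setting their reads cannot be told apart.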

Additional observations from a re-analysis of the deposited data

Results flagged for a closer look

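The change in HepG2S3 was compared with that in HCC4006ER by an interaction term in edgeR's quasi-likelihood fit with Benjamini-Hochberg adjustment. This test passed for 6 of the 7 cadherins tested and for 55.9% of all 14479 genes, so that passing sets no cadherin apart. The difference, HepG2S3 minus HCC4006ER on the log2 scale, was 12.95 for CDH3 (adjusted p 7.00e-07), which rose in HepG2S3 and fell in HCC4006ER. It was -2.67 for CDH1 (7.59e-04), which fell in both, and -1.13 for CDH2 (0.0117), which rose in HCC4006ER. For CDH4, which fell in HepG2S3 and rose in HCC4006ER, it was -6.47 (2.71e-04), for CDH6 -4.99 (2.55e-04) and for CDH11 -7.73 (0.00496). The HepG2 and HepG2S3 libraries held 24 CDH6 counts and 2 CDH11 counts in all, so the sizes of the last pair rest on few reads. Hepatocyte markers summed to 35.5 CPM in HepG2S3 against 43220 in HepG2, and the part of this in the differences was not tested.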

How the results depend on the processing

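Of 309 alternative values of the members' tests, 291 kept their direction and side of the threshold, 11 lost significance, 6 gained it and 1 reversed. The reversal was CDH2 in HepG2S3, at -0.27 without HepG2 replicate 1, against 0.33 without replicate 2. CDH17 in HepG2S3 lost its call with DESeq2 (adjusted p 0.122), in a fit of all 21 libraries (0.136), without HepG2 replicate 2 (0.0669) and without either HepG2S3 library (0.114 and 0.192). CDH4 in HCC4006ER lost it with DESeq2 (0.0549), in the fit of 21 libraries (0.119) and with all genes kept (0.163). CDH4 in HepG2S1 passed without HepG2 replicate 1 (-3.86, edgeR adjusted p 7.41e-04) or 2 (-2.92, 0.0287), and CDH2 (1.17e-05) and CDH3 (0.00852) in HepG2S1 without replicate 2. The difference between pairs of CDH13, at 0 counts in 3 of its 4 groups, passed with DESeq2 (-13.10, adjusted p 9.01e-07).

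Counts of called genes moved by over 1.5 times in HCC4006ER with all genes kept (3417 against 6266), in the 7 against 7 comparison with DESeq2 (105 against 0), and in U100 beyond 2-fold with a pseudocount of 0.1 CPM (1994 against 1241). Leaving out 1 library gave 7341 to 13242 calls in HepG2S3, 6335 to 11957 in HepG2S1, 4046 to 8370 in HCC4006ER (4046 without HCC4006ER replicate 1) and 6506 to 8518 for the difference between pairs. Leaving out 1 family gave 0 in the 7 against 7 comparison. With a pseudocount of 0.1 CPM, 9 of 80 member values crossed 2-fold, all of them low counts, among them CDH1 in PancB1V (-1.29). TMM-scaled sizes moved CDH4 in HepG2S1 (-1.01) and HepG2S3 (-1.12) past 2-fold.

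Replicate numbers were shared by 2 libraries per group. Deviations of same-numbered libraries correlated at 0.0169 over 13877 genes in the HepG2 pair and at 0.296 over 11812 genes in the HCC4006P1 pair. With the replicate block, 10561 genes were called in HepG2S3, 7787 in HCC4006ER and 8127 for the difference, and no member's call changed. Depth limits members under about 1 CPM, CDH17 and CDH4 in most lines, where single counts decide a fold.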
